A study of Mus musculus with 2 samples.

Results

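The genes of the BAF (SWI/SNF) remodeling complex were examined for promoter peaks of SRCAP, the ATPase of the complex that places the histone variant H2A.Z into nucleosomes. They comprised 10 of 21938 protein-coding genes on the mouse autosomes, X and Y: Smarca4, Smarcb1, Smarcc1, Smarcd1, Smarcd2, Smarce1, Arid1a, Arid2, Brd9 and Pbrm1. Members were chosen by name. A gene was counted as bound in a replicate when at least 1 bp of a peak lay within 1000 bp upstream to 500 bp downstream of any transcription start site (TSS) annotated for it. The peaks came from CUT&Tag, in which a transposase tethered by an antibody cuts the DNA next to the target protein. Both libraries were of SYAT cells, mouse embryonic stem cells (mESCs) of the CGR8 line in which both Srcap alleles carry a C-terminal YPet-AID tag and OsTir1 is stably expressed. An anti-GFP antibody recognised the YPet tag. Cells were in the control condition, with auxinole to prevent basal loss of SRCAP. Before the experiment they were moved from medium with serum, LIF and the inhibitors CHIR99021 and PD184352 to serum and LIF without the inhibitors. The tagged line came from a picked clone, so features of a single clone cannot be told apart from those of mESCs.

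The 2 samples are replicates of 1 group, and the study describes its replicates in general as independently cultured, while the labels of these libraries do not say so. How far differences between them are technical was not tested. Replicate 1 held 6158 peaks and replicate 2 held 12958. Each peak carries a score, a whole number in a list from MACS2, where this column is usually a scaled significance. The lists do not define it, so it is used here only to rank peaks. Read numbers are not in the lists, so the depth of each library is unknown, and a gene without a peak is not shown to lack SRCAP. Scores and widths are therefore ranked within a list and not compared between lists. No other condition and no control library was analysed here, so no comparison between groups could be made. Among 8 stem cell genes, Zfp42 had a promoter peak in both replicates, Pou5f1, Sox2 and Tfcp2l1 in replicate 2, and Nanog, Esrrb, Klf4 and Dppa5a in neither, which describes SRCAP at these promoters and not their expression.

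BAF complexes use ATP to slide or evict nucleosomes and keep regulatory DNA accessible. In mESCs they are built around the ATPase Smarca4 (BRG1) with a core that includes Smarcc1, Smarcd1 or Smarcd2 and, in cBAF and PBAF but not ncBAF, Smarcb1 and Smarce1, and they are known to maintain the pluripotent state. Arid1a marks the canonical form, cBAF, Arid2 and Pbrm1 the polybromo form, PBAF, and Brd9 the non-canonical form, ncBAF. SRCAP belongs to another remodeler family, INO80, and exchanges H2A for H2A.Z largely near promoters.

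The sequences that carry the peaks are given first, each as 300 bases on the strand of the gene, from the mm10 genome. Smarcd1 (chr15:99702196-99702495, plus strand) and Smarcd2 (chr11:106272803-106273102, minus strand) are shown because they were the members with a peak in both replicates, and the window is centred on the bases shared by both peaks. Smarca4 (chr9:21615749-21616048, plus strand) had the highest score of the members in replicate 2, and Pbrm1 (chr14:31018898-31019197, plus strand) shares its peak with a gene on the opposite strand; both are centred on the replicate 2 peak. Brd9 is shown as a promoter without a peak, with the RefSeq promoter of assembly GRCm38.p6 (chr13:73937561-73937860, plus strand), 250 bases before to 50 after the start. The last 3 were selected after their values had been seen. Capitals mark matches, on either strand, to 7 short motifs: the CCAAT box (CCAAT), the GC box (GGGCGG), and the letters bound by ETS factors (CCGGAAG), NRF1 (GCGCATGC), YY1 (AAGATGGC) and E-box factors (CACGTG), and the TATA box (TATAAA).
Smarcd1: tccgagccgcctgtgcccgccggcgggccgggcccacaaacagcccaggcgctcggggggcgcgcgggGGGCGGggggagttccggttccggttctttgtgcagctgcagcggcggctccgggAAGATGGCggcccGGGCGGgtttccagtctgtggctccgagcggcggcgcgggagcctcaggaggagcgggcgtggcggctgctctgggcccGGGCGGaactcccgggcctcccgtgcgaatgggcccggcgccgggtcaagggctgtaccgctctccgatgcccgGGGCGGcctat
Smarcd2: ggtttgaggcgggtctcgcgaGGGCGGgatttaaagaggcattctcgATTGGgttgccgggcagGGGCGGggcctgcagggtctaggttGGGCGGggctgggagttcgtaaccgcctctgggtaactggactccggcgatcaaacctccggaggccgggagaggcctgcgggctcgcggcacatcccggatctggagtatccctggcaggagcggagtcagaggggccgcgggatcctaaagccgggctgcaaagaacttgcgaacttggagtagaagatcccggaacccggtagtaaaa
Smarca4: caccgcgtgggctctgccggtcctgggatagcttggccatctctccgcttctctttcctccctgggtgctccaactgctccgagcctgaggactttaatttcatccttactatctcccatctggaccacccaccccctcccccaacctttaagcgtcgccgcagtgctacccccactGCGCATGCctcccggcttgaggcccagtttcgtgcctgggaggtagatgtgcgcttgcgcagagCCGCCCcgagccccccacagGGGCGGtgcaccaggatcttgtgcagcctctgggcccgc
Pbrm1: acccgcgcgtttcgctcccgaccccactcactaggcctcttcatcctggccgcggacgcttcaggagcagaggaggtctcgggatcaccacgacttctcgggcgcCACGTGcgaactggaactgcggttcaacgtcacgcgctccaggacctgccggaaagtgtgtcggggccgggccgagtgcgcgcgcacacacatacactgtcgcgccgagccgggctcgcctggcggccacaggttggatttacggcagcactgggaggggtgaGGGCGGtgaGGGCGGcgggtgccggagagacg
Brd9: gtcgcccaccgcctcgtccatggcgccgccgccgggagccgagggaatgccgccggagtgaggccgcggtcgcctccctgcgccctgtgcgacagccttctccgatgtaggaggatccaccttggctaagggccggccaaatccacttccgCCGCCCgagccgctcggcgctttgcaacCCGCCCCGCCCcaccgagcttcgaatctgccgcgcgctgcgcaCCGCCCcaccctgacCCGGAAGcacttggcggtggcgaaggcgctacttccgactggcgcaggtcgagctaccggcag

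Promoter peaks were called at 2 of the 10 genes in replicate 1 (Smarcd1 and Smarcd2) and at 8 of 10 in replicate 2, which added Smarca4, Smarcb1, Smarcc1, Smarce1, Arid1a and Pbrm1. Both replicates shared Smarcd1 and Smarcd2, and Arid2 and Brd9 had a promoter peak in neither. Over all 21938 genes, the same rule called 15.7% in replicate 1 (95% Wilson interval 15.2 to 16.2%), 30.4% in replicate 2 (29.8 to 31.0%) and 12.0% in both (11.6 to 12.5%). At least 1 replicate had a peak at 8 members, against 34.0% of all genes. The members' count in replicate 1 was near this background and that in replicate 2 was above it. These differences were not tested, since the genes were chosen with results of these data known. The intervals cover counting error only.

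The members' promoters were rich in CpG, so CpG-rich genes were used as a second background. In a window of 1501 bp around the principal TSS (that of the transcript which the APPRIS database marks as the main one), all 10 members had a GC content of at least 50% and a CpG observed-over-expected ratio of at least 0.6, as did 35.5% of all protein-coding genes. Of the 7784 genes with such a CpG-rich window, replicate 1 had a peak at 26.3%, replicate 2 at 50.0%, and both at 21.2%. Against these shares, 2 of 10 in replicate 1 and 2 of 10 in both were close to the background, and 8 of 10 in replicate 2 stayed above it. The members also had more annotated TSSs, with a median of 6 against 3 for all genes and 5 for CpG-rich genes, and so a wider promoter window in total, with a median of 5656 bp against 3002 bp and 3412.5 bp. With the principal TSS of each gene alone, which gives every gene 1 window, the count in replicate 2 was 6 of 10, against 27.0% of all genes and 47.3% of CpG-rich genes, a smaller excess than with all TSSs. With replicate 2 reduced to its 6158 highest-scoring peaks, the length of the shorter list, it was 7 of 10, against 19.2% and 33.5%.

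**Figure D1:**
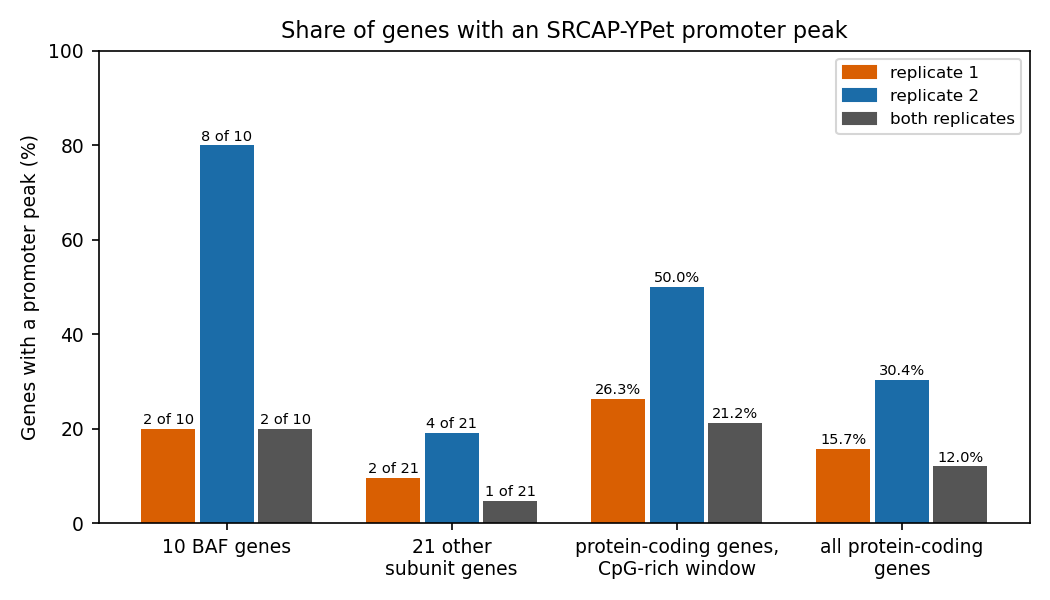
Share of genes with an SRCAP-YPet promoter peak (vertical axis, percent) for the 10 BAF genes, 21 other BAF subunit genes, protein-coding genes with a CpG-rich window and all protein-coding genes, with 1 bar for each replicate and 1 for both. The bar of the BAF genes in replicate 2, at 8 of 10, stands above the 50.0% of CpG-rich genes and the 30.4% of all genes, while the bars for replicate 1 and for both replicates lie near the background.

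Smarcd1 and Smarcd2 encode paralogous core subunits that take the same place in the complex. At Smarcd1 (ENSMUSG00000023018.5, chromosome 15, 99702129 to 99713991, plus strand), replicate 1 had a peak of 329 bp at 99702181 to 99702509 with a score of 33. Replicate 2 had a peak of 405 bp at 99702116 to 99702520 with a score of 45. The replicate 1 peak lay wholly within that of replicate 2 and covered 81.2% of it. Midpoints were 54 bp and 27 bp downstream of the nearest TSS, and 216 bp and 189 bp downstream of the principal TSS. In both replicates 177 bp of the peak were coding sequence of the first exon, with 141 bp and 193 bp of 5′ UTR. The scores were in the middle of each list, above 44.1% of the promoter peaks in replicate 1 and 53.8% in replicate 2.

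At Smarcd2 (ENSMUSG00000078619.10, chromosome 11, 106263179 to 106272972, minus strand), the peaks were 238 bp wide in both replicates, near the minimum of 235 bp and 236 bp in the lists. Replicate 1 had its peak at 106272787 to 106273024 with a score of 61, and replicate 2 at 106272880 to 106273117 with a score of 44. Both borders differed by 93 bp, so 145 bp, or 60.9% of each peak, were shared. The midpoint was at 59.5 bp from the nearest TSS in replicate 1, downstream, and at -26.5 bp in replicate 2, upstream. Both peaks spanned the TSS, with 186 bp and 93 bp of 5′ UTR and the remainder upstream of the gene. The score exceeded that of 83.5% of promoter peaks in replicate 1 and of 52.5% in replicate 2, while 1.38% and 0.79% of promoter peaks were narrower.

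Smarca4 (ENSMUSG00000032187.16, chromosome 9, 21616169 to 21704230, plus strand), the ATPase of the complex, had a peak in replicate 2 at 21615696 to 21616101, of 406 bp and with a score of 79. It exceeded the score of 84.7% of the promoter peaks in that list, the highest rank among the members in replicate 2. No TSS lay inside the peak, which ended 68 bp upstream of the principal TSS and lay entirely outside the gene. In replicate 1 the peak nearest to a TSS of the gene was 69.6 kb upstream, and the nearest peaks of the members below are likewise measured to a TSS.

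Smarcb1 (ENSMUSG00000000902.13, chromosome 10, 75896769 to 75921617, minus strand), a core subunit that contacts the nucleosome, had a peak in replicate 2 at 75921102 to 75921876, of 775 bp and with a score of 62. It covered 3 TSSs, with the midpoint 100 bp downstream of the nearest and 128 bp downstream of the principal TSS, and was wider than 93.4% of promoter peaks. Within it were 222 bp of 5′ UTR, 93 bp of coding sequence, 201 bp of intron and 259 bp upstream of the gene. The nearest peak in replicate 1 was 15.5 kb upstream.

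Smarcc1 (ENSMUSG00000032481.17, chromosome 9, 110117708 to 110240178, plus strand) encodes a scaffold of the core. Its peak in replicate 2, at 110116779 to 110117512 with a width of 734 bp and a score of 71, lay 196 bp upstream of the first annotated TSS and outside the gene. Relative to the principal TSS of Smarcc1, the midpoint was at -14834.5 bp, far upstream. The same peak contained 12 TSSs of Dhx30, an RNA helicase gene on the opposite strand, with the midpoint at -37.5 bp from the nearest of them, also upstream, and at 684.5 bp from the principal TSS of Dhx30, downstream. The assignment to Smarcc1 therefore rested on a single distal TSS, and with the basic transcript set or the principal TSS alone Smarcc1 had no promoter peak. In replicate 1 no peak lay within 10 kb, and the nearest was 16.3 kb upstream.

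Smarce1 (ENSMUSG00000037935.16, chromosome 11, 99209047 to 99231017, minus strand), the HMG-box subunit of cBAF and PBAF, had the widest and lowest-scoring of the members' peaks in replicate 2. The peak at 99229834 to 99230711 was 878 bp wide, with 96.6% of promoter peaks narrower, and its score of 22 exceeded that of 9.21%. Inside it were 3 TSSs, with the midpoint 140.5 bp downstream of the nearest and 744.5 bp downstream of the principal TSS. The peak lay wholly within the gene, with 310 bp of 5′ UTR, 229 bp of other exons and 339 bp of intron. In replicate 1 the nearest peak was 70.6 kb away.

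The ATPase and core genes thus had a promoter peak in 6 of 6 cases in replicate 2 and in 2 of 6 in replicate 1. The genes of subunits that distinguish the complex forms had 2 of 4 in replicate 2 and 0 of 4 in replicate 1. The background for these counts is 30.4% and 15.7% of all genes and 50.0% and 26.3% of CpG-rich genes, so 2 of 4 was at the CpG-rich share. With the principal TSS alone, the counts in replicate 2 were 5 of 6, without Smarcc1, and 1 of 4, without Arid1a. That rule called 27.0% of all genes and 47.3% of CpG-rich genes. With a TSS inside the peak the counts in replicate 2 were 4 of 6 and 1 of 4, against 20.6% and 33.0%. Both groups are small and the difference between them was not tested.

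Arid1a (ENSMUSG00000007880.16, chromosome 4, 133679008 to 133756769, minus strand), the DNA-binding subunit of cBAF, had a peak in replicate 2 at 133757154 to 133757655, of 502 bp and with a score of 40. It ended 385 bp upstream of the outermost TSS and did not overlap the gene. Relative to the principal TSS, which in this annotation coincides with the start codon, the midpoint was at -3793.5 bp, and with that TSS alone Arid1a had no promoter peak. The nearest peak in replicate 1 was 131 kb upstream, the farthest among the 6 members bound in replicate 2 alone.

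Pbrm1 (ENSMUSG00000042323.17, chromosome 14, 31019138 to 31121592, plus strand), the polybromo subunit of PBAF, had a narrow peak in replicate 2 at 31018926 to 31019168, of 243 bp and with a score of 51. It covered 3 TSSs of Pbrm1, with the midpoint at -91 bp from the principal TSS, and 31 bp of the peak were 5′ UTR. The same peak covered 6 TSSs of Gnl3, the neighbour on the opposite strand that encodes nucleostemin, and its midpoint was at -3 bp from the nearest of them. The principal TSSs of the genes were 14 bp apart, so the peak cannot be assigned to either gene alone. In replicate 1 the peak nearest to a TSS of Pbrm1 was 17.6 kb upstream, and another peak lay 9087 bp beyond the end of the gene.

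Arid2 (ENSMUSG00000033237.19, chromosome 15, 96287518 to 96404992, plus strand), the DNA-binding subunit of PBAF, had no promoter peak in either replicate but had peaks nearby. In replicate 1 a peak of 267 bp at 96285514 to 96285780, with a score of 31, ended 1738 bp upstream of the first TSS, outside the window. In replicate 2 a peak of 335 bp at 96298271 to 96298605 lay inside the gene, 10698 bp downstream of a TSS, with a score of 14, close to the lowest score of 13 in the list. A second replicate 2 peak, at 96408525 to 96408762 with a score of 13, lay 3533 bp beyond the end of the gene. None of these 3 peaks overlapped a peak of the other replicate.

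Brd9 (ENSMUSG00000057649.6, chromosome 13, 73937811 to 73960895, plus strand), the bromodomain subunit that defines ncBAF, had no peak within 10 kb in either replicate. The nearest peaks were 75.4 kb downstream in replicate 1 and 111 kb downstream in replicate 2. The principal TSS of Brd9 is 54 bp from the nearest annotated TSS of the divergent gene Trip13.

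**Figure D2:**
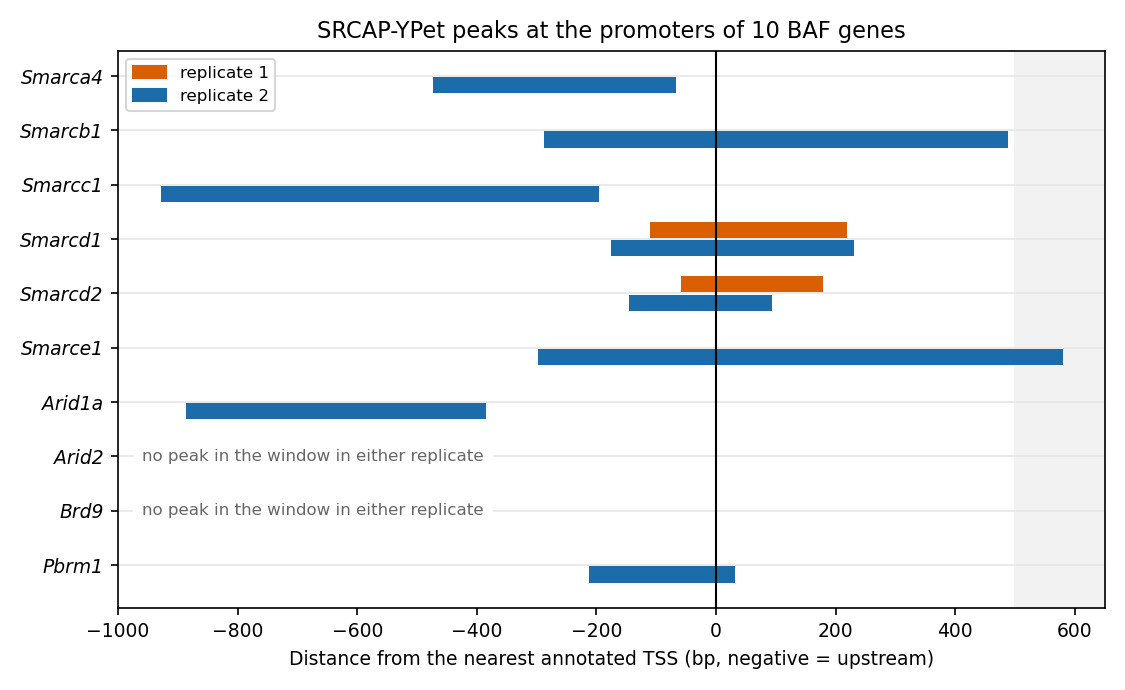
Extent of each promoter peak of the 10 BAF genes relative to the nearest annotated TSS (horizontal axis, bp, negative upstream), orange for replicate 1 and blue for replicate 2; grey shading marks positions beyond the 500 bp limit of the promoter window. The Smarcd1 and Smarcd2 peaks of both replicates cross the TSS, as do those of Smarcb1, Smarce1 and Pbrm1 in replicate 2, and those of Smarca4, Smarcc1 and Arid1a lie upstream of it.

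The score and width of the members' peaks were spread through the lists. In replicate 2 the members' scores ranged from 22 to 79 with a median of 48, against a median of 42 for all 6713 promoter peaks, whose quartiles were 29 and 63. Their widths ranged from 238 bp to 878 bp with a median of 454 bp, against 404 bp. In replicate 1 the 2 scores of 33 and 61 stood beside a median of 35 for 3342 promoter peaks. Smarce1 combined the largest width with the lowest score, and Smarcd2 the smallest width with a score of 44.

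**Figure D3:**
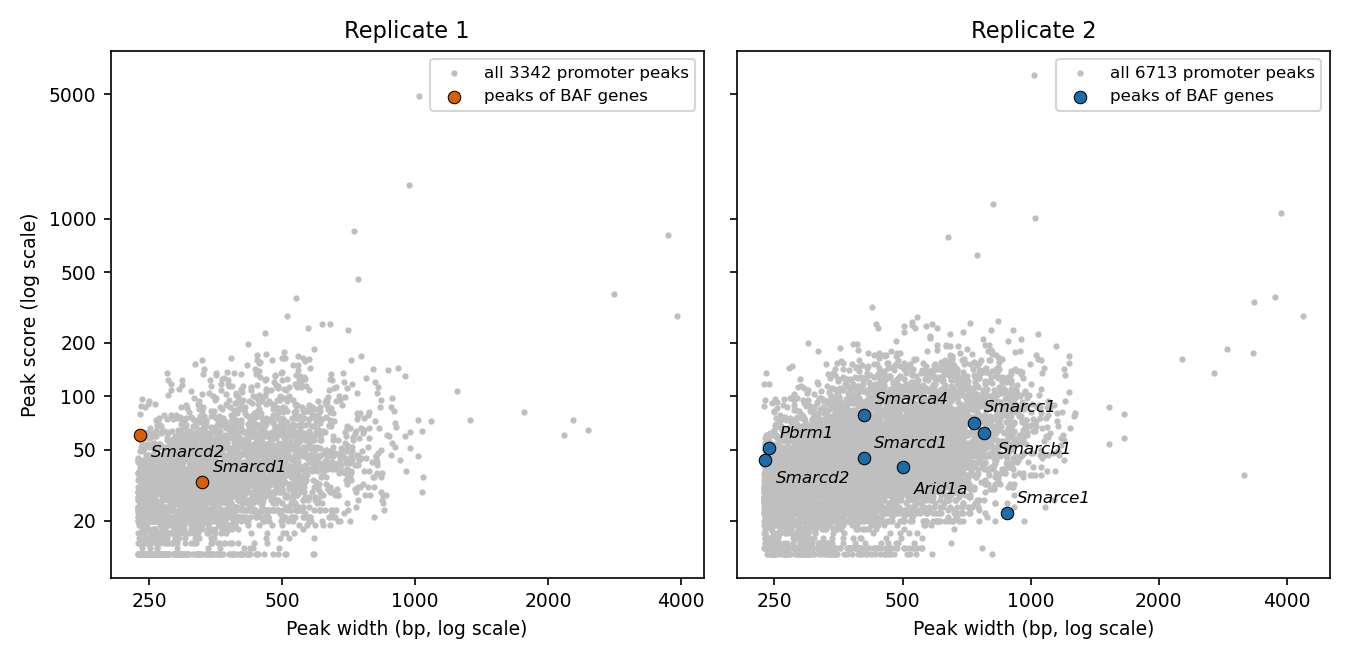
Width (horizontal, bp, log scale) and score (vertical, log scale) of all promoter peaks in grey and those of the BAF genes in colour, with 1 panel for each replicate. The members' peaks lie within the cloud, with Smarca4 the highest at a score of 79 and Smarce1 at the lower right edge with 878 bp and a score of 22.

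To see how far both replicates shared peaks at these genes, the members called in replicate 2 were followed in replicate 1. Replicate 1 had a promoter peak at 2 of these 8, against 39.7% of the 6660 genes called in replicate 2. Of all promoter peaks, 69.7% in replicate 1 and 34.7% in replicate 2 overlapped a peak of the other list. The 6 peaks found in replicate 2 alone had scores of 22 (Smarce1), 40 (Arid1a), 51 (Pbrm1), 62 (Smarcb1), 71 (Smarcc1) and 79 (Smarca4), against 44 and 45 for those found in both. Peaks missing from replicate 1 were thus not all lower in score in replicate 2, and the part of depth in this was not tested. Beyond the promoters, the other peaks within 10 kb of a member's gene, apart from the 3 at Arid2, lay at promoters of neighbouring genes: Derl3 near Smarcb1, Ftsj3 and Psmc5 near Smarcd2, and Nt5dc2 near Pbrm1. The Nt5dc2 peak was called in both replicates, with scores of 21 and 33.

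The base composition of the principal promoter windows is shown for all members in the plot of GC content and CpG ratio. GC content ranged from 52.2% at Smarce1 to 77.5% at Arid1a, with a median of 59.9% against 52.1% for all protein-coding genes. The CpG ratio ranged from 0.68 at Smarcd1 to 0.983 at Arid2, with a median of 0.824 against 0.502. Peaks were counted at any TSS, while composition refers to the principal window. The principal windows of Smarcc1 and Arid1a held no peak, since their peaks lay farther upstream. Of the genes without a peak, Arid2 had 74.3% GC and a ratio above that of all 8 bound members, the highest of which was 0.875 at Pbrm1. Brd9, with 56.9% GC and a ratio of 0.761, lay between bound members on both measures. Within the peaks themselves, Smarcd1 stood out with a GC content of 76.3% in replicate 1 and 75.1% in replicate 2, above 99.3% and 99.0% of the promoter peaks. The Arid1a peak had 56.8%, above 21.7% of the promoter peaks, although the principal window of that gene had the highest GC content of the members.

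**Figure D4:**
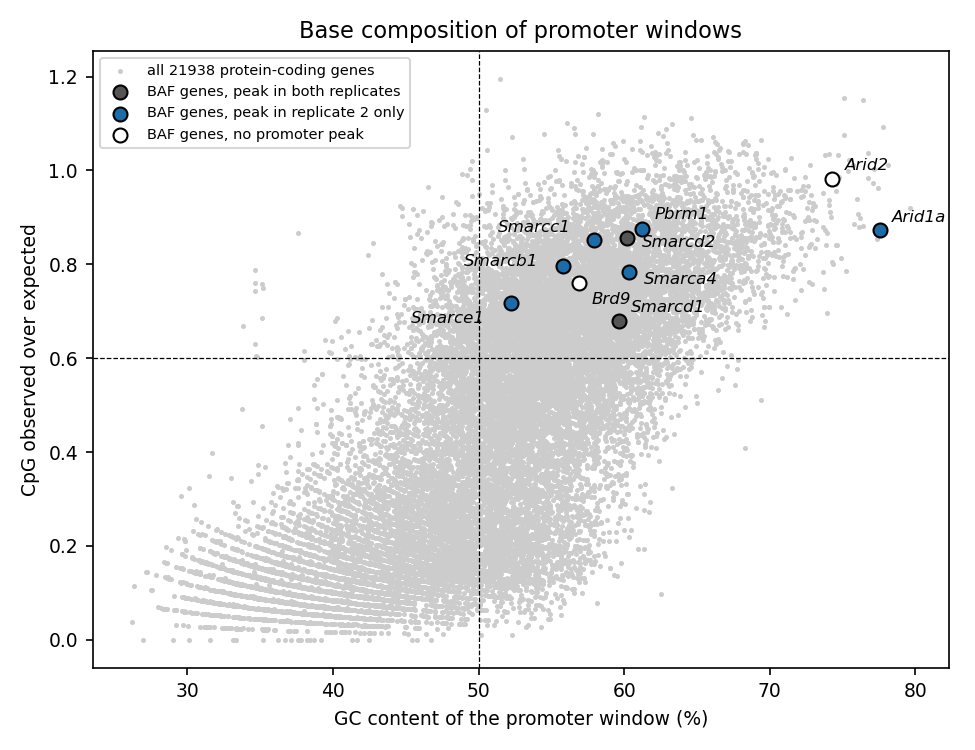
GC content (horizontal, percent) against the CpG observed-over-expected ratio (vertical) in the window around the principal TSS, for 21938 protein-coding genes in grey and the 10 BAF genes as large points filled by where a peak was called. All 10 lie above both dashed limits of 50% and 0.6, the open point of Arid2 has the highest ratio, 0.983, and that of Brd9 lies among the filled ones. The fill counts a peak at any TSS, and the plotted windows of Smarcc1 and Arid1a themselves hold no peak.

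The motifs were counted in the 300 bases around the peaks of all 8 bound members, of which 4 are printed above. The GC box was found in most of them, at 6 of the 8 members (Smarca4, Smarcb1, Smarcc1, Smarcd1, Smarcd2 and Pbrm1), against 57.0% of the 6713 promoter peaks of replicate 2 and 35.7% of 32851 RefSeq promoters. The CCAAT box was found at 3 members (Smarcc1, Smarcd2 and Smarce1), against 32.4% and 37.4%. The Smarcc1 matches lay in the peak at the TSSs of Dhx30, at -14936 to -14857 bp from the principal TSS of Smarcc1. The CCAAT match at Smarce1 began 852 bp downstream of its principal TSS. NRF1 letters were found at Smarca4 and Smarcb1, against 3.59% and 2.71%, and the E-box at Pbrm1, against 7.6% and 7.15%. The YY1 letters were found at Smarcd1, against 3.4% and 2.75%. That match began 190 bp downstream of the principal TSS, and its ATG, at 193 bp, was the annotated start codon. The ETS letters (12.8% and 8.86%) and the TATA box (3.62% and 13.6%) were found at none of the 8, and the Brd9 promoter held GC boxes and an ETS match. A match describes the sequence and is not a measured binding site.

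The other subunits were taken from a list of 21 genes. In replicate 1, Actl6a and Ss18 had a promoter peak, 2 of 21, and in replicate 2 Actl6a, Dpf2, Phf10 and Bcl7c did, 4 of 21. The count in replicate 1 was near the background of 15.7%, and that in replicate 2 was below its 30.4%. Of these 21 genes, 18 had a CpG-rich window, and the differences were not tested. Actl6a was the one gene with a peak in both. It encodes an actin-like protein that the SRCAP complex shares with BAF. On chromosome 3, its peak was at 32708519 to 32709019 with a score of 49 in replicate 1 and at 32708354 to 32708907 with a score of 95 in replicate 2, with 389 bp in common. Midpoints were 4 bp and 80.5 bp downstream of the nearest TSS. No promoter peak was called in either replicate at the other 16: Smarca2, Smarcc2, Smarcd3, Arid1b, Actl6b, Actb, Dpf1, Dpf3, Ss18l1, Bcl7a, Bcl7b, Bcl11a, Bcl11b, Brd7, Bicra and Bicral. Among them are paralogs of bound members, Smarca2 beside Smarca4, Smarcc2 beside Smarcc1, Smarcd3 beside Smarcd1 and Smarcd2, and Arid1b beside Arid1a, although Smarcc1 and Arid1a themselves had no peak at their principal TSS. Over all 31 genes, replicate 1 called 4, replicate 2 called 12, and 3 were called in both. The count of 12 lay between the 30.4% of all genes and the 50.0% of CpG-rich genes. The counts of 4 and 3 were close to the 15.7% and 12.0% of all genes. The excess of the 10 members in replicate 2 over CpG-rich genes was thus not seen over the longer list.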

How the data were processed

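SRCAP-YPet was mapped with an anti-GFP antibody by CUT&Tag, in 2 replicates of SYAT mESCs. Per the labels, 200000 cells were mixed with 10000 Drosophila nuclei as a spike-in. The authors deposited 1 peak list for each replicate, with a whole-number score for each peak. The submitters' processing notes name STAR, Picard and MACS2 and the builds mm10 and dm6. Under a heading that covers ChIP-seq and CUT&Tag, the study's methods describe duplicate removal and downsampling by spike-in before peak calling, worded for ChIP-seq libraries. Both lists still hold mitochondrial peaks, which those methods would remove, and whether the input control in the command of its reporting form was used here is not given. Spike-in scaling and depth both affect how many peaks pass the threshold.

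Peaks were overlapped with windows from 1000 bp upstream to 500 bp downstream of each TSS of GENCODE M21, by at least 1 bp, on chromosomes 1 to 19, X and Y. Sequences were read from GRCm38.p6, whose coordinates are those of mm10, and RefSeq promoters matched 8 of 10 members. The naming rule gave values for all 10 members and for other subunit genes with a peak in both replicates, and names for the rest. Members and lists were chosen with earlier results of these data known, and no test was run. Overlap code was tested on simulated data. Alternatives changed the window, transcripts, overlap, score, list length and merging. Python 3.11.15, numpy 2.4.6, pandas 2.3.3, pysam 0.24.0 and matplotlib 3.10.9 were used.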

Additional observations from a re-analysis of the deposited data

How the results depend on the processing

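Of 78 alternative values for 11 results, 65 stayed within 1.5 times the count as reported, or 1 SD for a median, and 13 moved further. Some of the 65 could not fall: replicate 1 at equal list lengths is its full list, and merging takes no peak away from a gene. Changes from 8 to 6 and from 2 to 3 members counted as within the limit, so the 65 are not a measure of stability. One alternative, the principal TSS alone, was chosen after seeing the data. Requiring a TSS inside the peak left 5 members in replicate 2 and 5 in at least 1 replicate, losing Smarca4, Smarcc1 and Arid1a, against 20.6% and 23.3% of all genes. In replicate 2 that rule called 33.0% of CpG-rich genes. A score of at least 50 removed most peaks and left 1 member in replicate 1 (Smarcd2), 4 in replicate 2 (Smarca4, Smarcb1, Smarcc1 and Pbrm1), 0 in both and 5 in at least 1, against 4.21%, 13.1%, 2.99% and 14.3% of all genes. Of CpG-rich genes it left 7.43% in replicate 1 and 23.7% in replicate 2. This score limit left 0, 1 and 0 of the other subunit genes in replicate 1, replicate 2 and both. At equal list lengths the other subunit genes in replicate 2 fell to 1 (Actl6a), and the share of all genes to 19.2% from 30.4%. Leaving out 1 replicate gave 2 to 8 members in at least 1 replicate, the lower value without replicate 2, against 15.7% and 30.4%. A window of 2000 bp upstream to 1000 bp downstream added Arid2 in replicate 1, giving 3 (16.3% of all genes and 27.1% of CpG-rich genes). Basic transcripts removed Smarcc1, giving 7 in replicate 2 (28.8% and 48.4%). The median distance of midpoints to the TSS, 56.75 bp and 120.25 bp, was 141.25 bp and 229.75 bp with the TSS of the longest coding transcript. No paired analysis was possible because the samples form 1 group. Unknown depth limits every statement on peaks found in 1 replicate, and the cause of the shifts was not tested beyond what each alternative removes.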

Other observations

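Remodeler genes outside the BAF family were looked at after their values had been seen, and are given as values without a test. Of 13 genes of the ISWI and CHD families and related ATPases, replicate 1 had a promoter peak at 6, replicate 2 at 7, and both at 5, against 15.7%, 30.4% and 12.0% of all protein-coding genes and 26.3%, 50.0% and 21.2% of those with a CpG-rich window. The counts in replicate 1 and in both were above the CpG-rich shares, and that in replicate 2 was near it. The 5 genes called in both were Smarca5, the ISWI ATPase, Chd6, Chd8, Chd9 and Atrx, which helps to place H3.3. At the principal TSS of Smarca5 the score was 44 in replicate 1 and 120 in replicate 2, the latter above 95.4% of promoter peaks. Chd9 had more than 1 promoter peak in each replicate, with those nearest to its principal TSS scoring 51 and 81. No promoter peak was called in either replicate at Smarca1, Chd3, Chd4, Chd5 and Chd7, although Chd4 is the ATPase of the NuRD complex in mESCs.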
